A study of Homo sapiens with 6 samples.

Results

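The chemokines, interleukins and feedback inhibitors that answer to the transcription factor NF-kB were followed in U87MG cells with and without added LMO2. The set held 10 genes of the 27257 genes that had a line in at least 1 library: the chemokines CXCL1, CXCL2, CXCL3, CXCL12, CCL2 and CCL7, the cytokines IL1A and IL1B, and the inhibitors TNFAIP3 and NFKBIA. They were chosen by name and found by gene symbol and Entrez gene ID, without a threshold on any value. Of the 10 genes, 9 had a count in at least 1 library and 5 (CXCL2, CXCL3, IL1B, TNFAIP3 and NFKBIA) had enough counts to be tested.

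U87MG is an established human glioblastoma cell line, and the LIM-domain protein LMO2 is an adaptor that joins transcription factor complexes. Infection lasted 24 h, with a control lentivirus in U87MG-control (n = 3 libraries) or a lentivirus that expresses LMO2 in U87MG-LMO2 (n = 3 libraries), so the groups shared a lentiviral infection. An uninfected group was not analysed here, and all libraries came from a single line. The labels do not say that the 3 libraries of a group came from separate cultures, and if they did not, the p values measure technical spread.

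NF-kB dimers are held in the cytoplasm by IkB proteins until signals from receptors such as those for interleukin 1 and TNF activate the IkB kinase, which marks IkB for destruction. The freed dimers enter the nucleus, bind kappaB sites and switch on chemokines, cytokines and their own inhibitors, among them NFKBIA and TNFAIP3. In glioma, chemokines and interleukins of this kind are known for drawing in myeloid cells and for acting back on the tumour cells.

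The promoters are shown first, to place the letters that NF-kB is known to bind. Each line gives the bases from 110 to 1 before the gene start, 5′ to 3′ on the strand of the gene, from RefSeq on GRCh38.p14. Capitals mark the letters that matched the NF-kB kappaB consensus on either strand. The windows lie at chr4:73869283-73869392 (plus strand) for CXCL1, chr4:74099196-74099305 (minus strand) for CXCL2, chr4:74038690-74038799 (minus strand) for CXCL3, chr6:137867149-137867258 (plus strand) for TNFAIP3 and chr14:35404750-35404859 (minus strand) for NFKBIA.
CXCL1: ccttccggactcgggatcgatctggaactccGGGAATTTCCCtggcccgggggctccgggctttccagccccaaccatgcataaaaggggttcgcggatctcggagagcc
CXCL2: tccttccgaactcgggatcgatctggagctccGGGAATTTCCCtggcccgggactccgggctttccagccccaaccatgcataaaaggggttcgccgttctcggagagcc
CXCL3: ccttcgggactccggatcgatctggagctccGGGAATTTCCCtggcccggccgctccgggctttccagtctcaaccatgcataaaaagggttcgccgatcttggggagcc
TNFAIP3: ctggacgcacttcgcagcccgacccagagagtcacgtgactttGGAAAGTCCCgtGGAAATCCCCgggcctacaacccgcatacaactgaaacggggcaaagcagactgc
NFKBIA: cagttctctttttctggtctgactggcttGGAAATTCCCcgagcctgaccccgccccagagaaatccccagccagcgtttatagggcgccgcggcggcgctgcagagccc

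CXCL1, CXCL2 and CXCL3 shared the same 11-base stretch, which began 79, 78 and 79 bases before their starts and matched on both strands with the matches overlapping. NFKBIA had 1 match and TNFAIP3 had 2, on the strand opposite to the gene. In the full windows of 250 bases before to 50 bases after the start, 5 of the 9 genes with an entry (55.6%) held a match, against 5.72% of all 27305 promoters in the table. The other 4 (CXCL12, CCL7, IL1A and IL1B) held none, and CCL2 had no entry. Among the lists used below, the share with a match was 50.0% for NF-kB subunits and IkB proteins and 40.0% for further chemokines. It was 27.6% for other NF-kB targets and 23.1% over all 5 lists. The members were chosen as genes known to answer to NF-kB, so a share above that of all promoters follows from the choice. CXCL1, CXCL2 and CXCL3 are also close relatives, so their matches are not independent. A match describes letters only, and no binding was measured in these libraries.

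Depth was 11428432 to 13537284 expected counts in the U87MG-control libraries and 14630627 to 17892955 in the U87MG-LMO2 libraries. Where a gene had 0 counts, a library could still hold up to 3, which was 0.168 to 0.263 CPM (counts scaled to library size), and this floor covers counting error only. LMO2 (4005), the overexpressed gene, had 7, 11 and 5 counts in U87MG-control and 5459, 4503 and 14570 counts in U87MG-LMO2, so it matched the labels in all 6 libraries and was highest in U87MG-LMO2 replicate 3. In each group 1 library lay furthest from the others, as must be so among 3. The root mean square deviation from the group mean of log2 CPM was 0.265 in U87MG-control replicate 1 against 0.210 and 0.208. It was 0.340 in U87MG-LMO2 replicate 3 against 0.215 and 0.273 in replicates 1 and 2, so U87MG-LMO2 replicate 2 deviated more than U87MG-control replicate 1. U87MG-control replicate 1 and U87MG-LMO2 replicate 3 are called the libraries that stood apart, each within its own group only. Both libraries carried high values of several of the 10 genes, and the fold changes of the genes with a fit are therefore also given without them.

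None of the 5 tested genes passed the edgeR test at an adjusted p under 0.05 with all 6 libraries. Among all 16092 tested genes, 4.72% passed as higher and 2.75% as lower in U87MG-LMO2. Of the 5 genes, 1 (NFKBIA) had an unadjusted p under 0.05, against 25.7% of all tested genes, and DESeq2 and limma on log2(FPKM + 1) also called 0, although they called 11.7% and 5.53% of all genes they tested. The log2 fold changes ran from -0.29 (TNFAIP3) to 0.77 (CXCL2), beside a median of -0.01 over all tested genes.

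**Figure D1:**
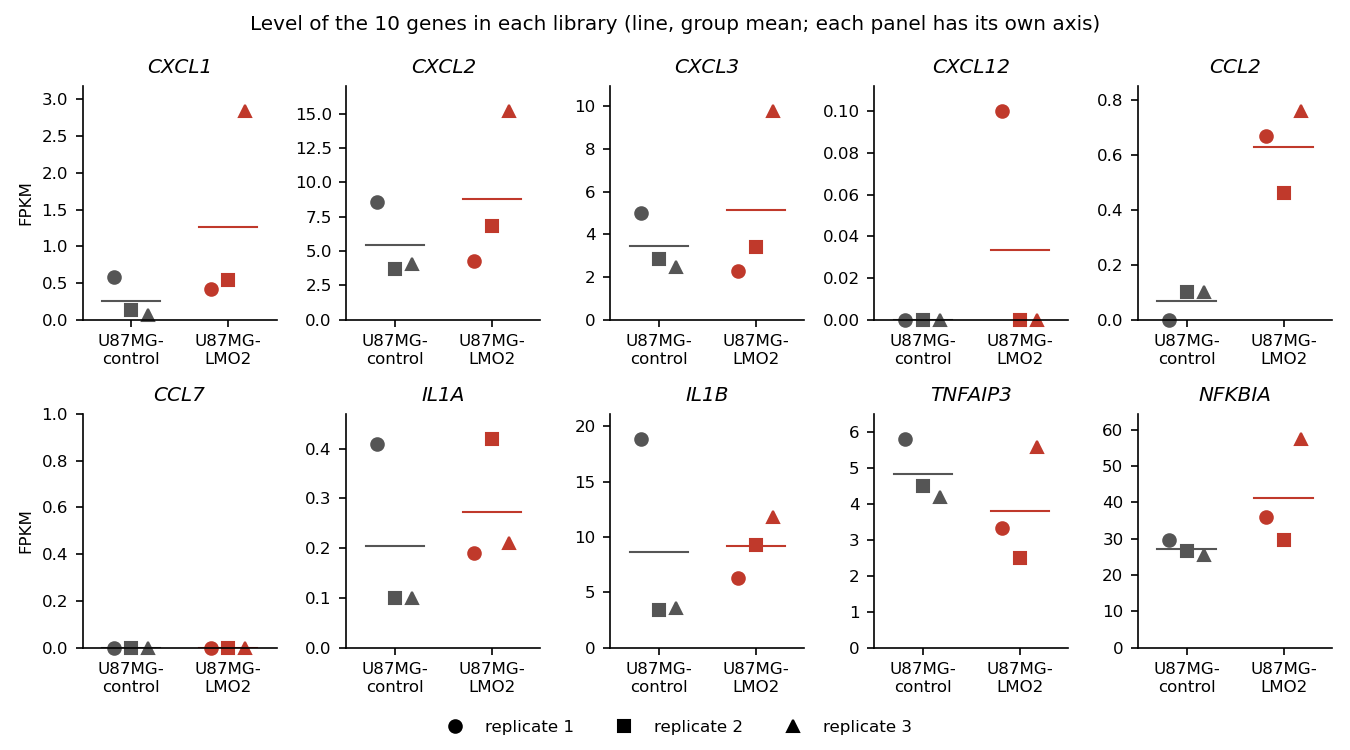
Level of each of the 10 genes in FPKM (vertical axis, 1 scale per panel) in the 3 U87MG-control and the 3 U87MG-LMO2 libraries, with symbols for the replicates and a line at the group mean. U87MG-LMO2 replicate 3 was the highest library for CXCL1, CXCL2, CXCL3, CCL2 and NFKBIA, whereas U87MG-control replicate 1 was the highest for IL1B and TNFAIP3.

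The chemokines CXCL1, CXCL2 and CXCL3 signal through the receptor CXCR2 and attract neutrophils. CXCL2 (2920) measured 8.57, 3.72 and 4.04 FPKM in U87MG-control and 4.27, 6.80 and 15.18 FPKM in U87MG-LMO2. The groups overlapped, since U87MG-control replicate 1 exceeded U87MG-LMO2 replicates 1 and 2. The mean was 5.44 ± 2.71 FPKM (SD, n = 3) in U87MG-control and 8.75 ± 5.71 FPKM (SD, n = 3) in U87MG-LMO2. This difference was within the spread between libraries (log2 fold change 0.77, SE 0.50, edgeR adjusted p = 0.370). It was 0.03 without U87MG-LMO2 replicate 3, 1.25 without U87MG-control replicate 1 and 0.50 without both, so the single libraries moved it in opposite directions.

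CXCL3 (2921) was highest in the same 2 libraries as CXCL2, at a lower level. It measured 4.99, 2.85 and 2.48 FPKM in U87MG-control and 2.26, 3.40 and 9.77 FPKM in U87MG-LMO2. The lowest and the highest library both belonged to U87MG-LMO2. The log2 fold change was 0.68 (SE 0.55, edgeR adjusted p = 0.470), and it turned to -0.27 without U87MG-LMO2 replicate 3. It was 1.05 without U87MG-control replicate 1 and 0.09 without both. Across the 6 libraries, log2 CPM of CXCL2 and CXCL3 had a Pearson r of 0.967, a description over libraries that share their preparation and depth. The ratio of CXCL2 to CXCL3 in FPKM was 1.72, 1.31 and 1.63 in U87MG-control and 1.89, 2.0 and 1.55 in U87MG-LMO2.

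CXCL1 (2919) was close to the limit of detection in 5 of the 6 libraries. It had 7.75, 2.03 and 1.01 expected counts in U87MG-control and 7.96, 9.19 and 59.65 in U87MG-LMO2, of which replicate 3 stood far above the rest. The filter on low counts removed CXCL1, and without that filter the log2 fold change was 2.42 (SE 0.79, edgeR adjusted p = 0.0963). It was 0.90 (edgeR adjusted p = 0.514) without U87MG-LMO2 replicate 3, 3.73 (edgeR adjusted p = 0.165) without U87MG-control replicate 1 and 2.21 (edgeR adjusted p = 0.0917) without both, so its size rested on the libraries kept. CXCL1 was called with the replicate block (2.12, edgeR adjusted p = 0.0286) and without U87MG-LMO2 replicate 1 (2.85, edgeR adjusted p = 0.0211). Both of those fits kept U87MG-LMO2 replicate 3. In U87MG-LMO2 replicate 3 the CPM of CXCL1 was 6.56 times the mean of the other two U87MG-LMO2 libraries, and in U87MG-control replicate 1 it was 6.26 times the mean of the other two controls. The 3 chemokines are close relatives: 5.73% of the 50-base windows of the CXCL1 transcript, 9.24% for CXCL2 and 5.26% for CXCL3 occurred in one of the other two, and reads from such stretches could have been split between them.

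CXCL12, CCL2 and CCL7 belong to other branches of the chemokine family. CXCL12, which signals through CXCR4, had 3 counts in U87MG-LMO2 replicate 1 and 0 in the other 5 libraries, which is at the floor, so no fold is given. CCL7, which attracts monocytes, had 0 counts in all 6 libraries. Neither chemokine was detectable above the floor at this depth.

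CCL2, the main monocyte attractant of this family, had 0, 1 and 1 counts in U87MG-control and 8, 5 and 10 counts in U87MG-LMO2. All U87MG-LMO2 libraries lay above all controls, as did those of 12.6% of all genes when no filter was applied. Summed over each group, 2 counts against 23 gave a ratio, scaled to library size, of 8.99, with an exact 95% interval of 2.22 to 78.7 that covers counting error only. CCL2 did not pass the filter on low counts, and a fit with no filter gave a log2 fold change of 3.02 (SE 0.82) with an edgeR adjusted p of 0.0424. It was then called, as were 3.45% of the 26988 genes tested without the filter as higher. The call was lost in 9 of 12 alternatives, among them the removal of any 1 library, with adjusted p values from 0.0410 to 0.162 over those alternatives, and DESeq2 gave no adjusted p. The log2 fold change was 2.81 without U87MG-LMO2 replicate 3, 2.56 without U87MG-control replicate 1 and 2.36 without both. At 0.46 to 0.76 FPKM in U87MG-LMO2, CCL2 remained below every tested member.

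IL1A and IL1B encode the ligands of the interleukin 1 receptor. IL1B (3553) measured 18.88, 3.42 and 3.54 FPKM in U87MG-control and 6.32, 9.29 and 11.84 FPKM in U87MG-LMO2. U87MG-control replicate 1 was the highest of all 6 libraries, at 5.46 times the mean CPM of the other two controls, whereas those were the 2 lowest. With all 6 libraries the difference was smaller than the spread between libraries (log2 fold change 0.16, SE 0.61, edgeR adjusted p = 0.893). Its direction depended on the libraries kept: it was -0.22, -0.21 and -0.12 without U87MG-control replicate 2, U87MG-control replicate 3 or U87MG-LMO2 replicate 3. It was 1.45 (SE 0.32, edgeR adjusted p = 0.0831) without U87MG-control replicate 1, and 1.16 (SE 0.21, edgeR adjusted p = 0.00387) without both that library and U87MG-LMO2 replicate 3. In that last comparison, added after seeing the data, 9.67% of 16234 genes were called higher. The removed control was the highest library for IL1B, so that fit cannot decide whether IL1B rose.

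IL1A (3552) was far below IL1B, with 14, 4 and 4 counts in U87MG-control and 9, 18 and 11 in U87MG-LMO2, or at most 0.42 FPKM. The groups overlapped, and U87MG-control replicate 1 was again the highest control. Scaled to library size, the ratio of the summed counts was 1.35, with an exact 95% interval of 0.779 to 2.40, and without the filter the log2 fold change was 0.47 (SE 0.55, edgeR adjusted p = 0.665). It was 1.41 without U87MG-control replicate 1, 0.59 without U87MG-LMO2 replicate 3 and 1.53 (edgeR adjusted p = 0.0911) without both. Without U87MG-control replicate 2, U87MG-control replicate 3 or U87MG-LMO2 replicate 2 it was 0.13, 0.15 and 0.06, so the value moved with single libraries while its direction held.

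NFKBIA and TNFAIP3 encode the feedback inhibitors of the pathway. NFKBIA (4792), whose product IkB alpha retains NF-kB in the cytoplasm, had the highest level of the 10 genes in every library. It measured 29.49, 26.53 and 25.60 FPKM in U87MG-control and 35.99, 29.74 and 57.50 FPKM in U87MG-LMO2. The groups did not overlap, which held for 17.5% of all tested genes in this direction, although U87MG-LMO2 replicate 2 was only slightly above the highest control. The mean was 27.2 ± 2.03 FPKM (SD, n = 3) against 41.1 ± 14.6 FPKM (SD, n = 3), and most of the spread came from U87MG-LMO2 replicate 3. The log2 fold change was 0.66 (SE 0.25, unadjusted p = 0.0263, edgeR adjusted p = 0.137). It was 0.72 without U87MG-control replicate 1. Without U87MG-LMO2 replicate 3 it was 0.27 (edgeR adjusted p = 0.125), and without both libraries that stood apart it was 0.33 (SE 0.10, edgeR adjusted p = 0.0417). That last comparison was added after seeing the data, and 9.67% of 16234 genes were called higher in it.

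TNFAIP3 (7128), which encodes the ubiquitin-editing enzyme A20, had a fold change of the opposite sign. It measured 5.82, 4.50 and 4.19 FPKM in U87MG-control and 3.34, 2.51 and 5.58 FPKM in U87MG-LMO2. In FPKM, U87MG-LMO2 replicates 1 and 2 lay below all controls and replicate 3 lay above all but 1 of them. In CPM, U87MG-LMO2 replicate 3 was the highest library, at 27.9 against 27.3 in U87MG-control replicate 1. The log2 fold change was -0.29 (SE 0.29, edgeR adjusted p = 0.556). It became -0.71 (SE 0.17, edgeR adjusted p = 0.0227) without U87MG-LMO2 replicate 3, when 6.72% of all tested genes were called lower. It was -0.14 without U87MG-control replicate 1. Without both libraries that stood apart it was -0.57 (SE 0.14, edgeR adjusted p = 0.0180), with 8.53% of all tested genes called lower. That removal was added after seeing the data.

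**Figure D2:**
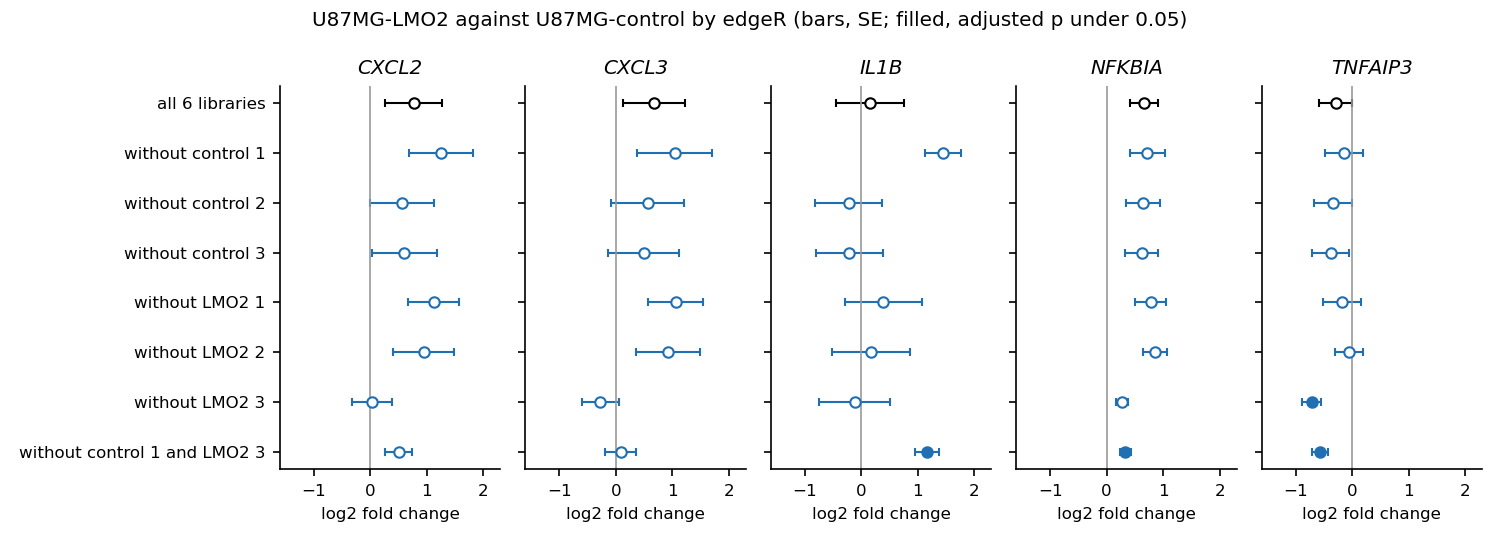
Log2 fold change of U87MG-LMO2 against U87MG-control by edgeR (horizontal axis) for the 5 tested genes, with all 6 libraries, without each library in turn and without both libraries that stood apart. Bars are the SE and filled points have an adjusted p under 0.05. CXCL3 changed sign without U87MG-LMO2 replicate 3, and IL1B ranged from -0.22 to 1.45.

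In FPKM averaged over the 6 libraries, NFKBIA came first, and IL1B, CXCL2, TNFAIP3 and CXCL3 followed. Those 4 neighbours did not separate, since their library ranges overlapped. CXCL1, CCL2 and IL1A stayed below 1 FPKM in every library but U87MG-LMO2 replicate 3, in which CXCL1 measured 2.84 FPKM.

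The libraries that stood apart did so to different degrees for different genes. In U87MG-LMO2 replicate 3, the CPM of CXCL3 was 3.78 times, of CXCL2 2.99 times, of TNFAIP3 2.03 times, of NFKBIA 1.91 times and of IL1B 1.65 times the mean of the other two libraries of its group. In U87MG-control replicate 1 the same ratio was 5.46 for IL1B, 2.22 for CXCL2, 1.90 for CXCL3 and 1.34 for TNFAIP3. A ratio of at least 2 was reached by 3 of the 5 genes in U87MG-LMO2 replicate 3, against 2.47% of all tested genes. It was reached by 2 of the 5 in U87MG-control replicate 1, against 1.15% of all tested genes. LMO2 itself was 2.74 times as high in U87MG-LMO2 replicate 3 as in the mean of U87MG-LMO2 replicates 1 and 2. It had 7 counts in U87MG-control replicate 1, against 11 and 5 in U87MG-control replicates 2 and 3. The part of LMO2 in the values of either library was not tested.

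**Figure D3:**
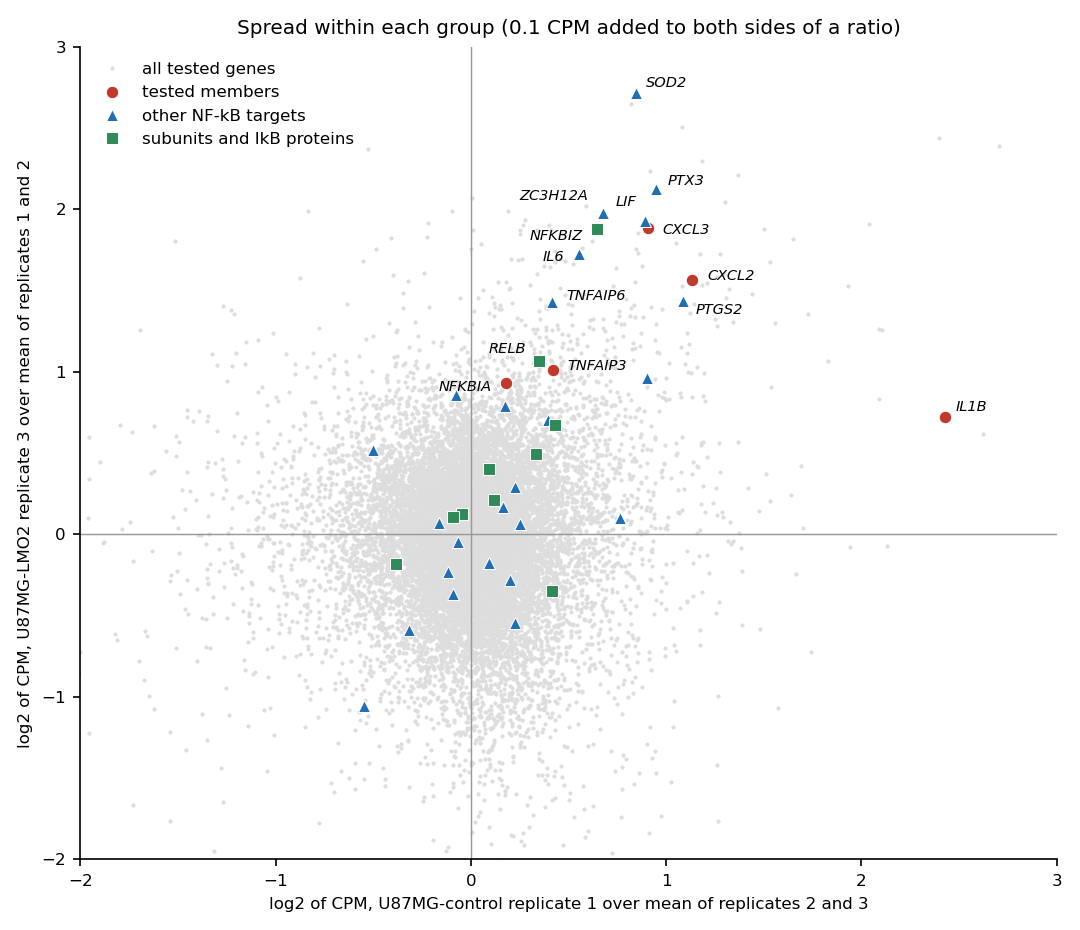
Log2 ratio of CPM in U87MG-LMO2 replicate 3 over the mean of replicates 1 and 2 (vertical axis) against the log2 ratio in U87MG-control replicate 1 over the mean of replicates 2 and 3 (horizontal axis), with 0.1 CPM added to both sides of each ratio, for all tested genes (grey; 87 lie outside the axes), the 5 tested members (red), other NF-kB targets (blue) and NF-kB subunits and IkB proteins (green). All 5 members lie above 0 on both axes, with CXCL3 and CXCL2 high on the vertical axis and IL1B far out on the horizontal one.

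The rest of the pathway was described with 5 lists of 112 genes, of which 81 were tested. Of these, 5 were called higher and 2 lower, shares close to the 4.72% and 2.75% of all tested genes. The 10 subunits and further IkB proteins held no call by edgeR, with a median log2 fold change of 0.08. At an unadjusted p under 0.05 there were 0, against 25.7% of all tested genes. RELA (5970), the main activating subunit, measured 80.2 ± 1.77 FPKM (SD, n = 3) in U87MG-control and 80.0 ± 2.57 FPKM (SD, n = 3) in U87MG-LMO2, a log2 fold change of 0.03 (SE 0.09). The inhibitor NFKBIB (4793) had a log2 fold change of 0.06 (SE 0.13). NFKBIZ, an IkB protein that is itself induced by NF-kB and was chosen here after its values were seen, measured 10.76, 6.90 and 6.83 FPKM in U87MG-control and 7.02, 6.73 and 23.23 FPKM in U87MG-LMO2. It was thus high in the same U87MG-LMO2 library as the chemokines.

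Of the 26 kinases and adaptors, 1 rose and 1 fell, with a median log2 fold change of 0.06. TRAF3 (7187), an adaptor that restrains the non-canonical branch, measured 15.07, 14.40 and 14.28 FPKM in U87MG-control and 17.71, 18.94 and 17.14 FPKM in U87MG-LMO2. The groups did not overlap, as in 17.5% of all tested genes in this direction. The log2 fold change of TRAF3 was 0.39 (SE 0.09, edgeR adjusted p = 0.0379). TBK1 (29110), an IKK-related kinase, fell from 11.93, 10.23 and 10.88 FPKM to 7.22, 8.0 and 7.30 FPKM, also without overlap, as did 16.6% of all tested genes in this direction (log2 fold change -0.53, SE 0.12, edgeR adjusted p = 0.0334). With the GC-content correction neither was called, with log2 fold changes of 0.30 for TRAF3 and -0.33 for TBK1 (edgeR adjusted p = 0.0750 and 0.156). By limma on log2(FPKM + 1), TRAF3 was not called (0.28, adjusted p = 0.124), whereas TBK1 was (-0.50, adjusted p = 0.0450). The most abundant genes of the list, IRAK1 (3654) and SHARPIN (81858), had log2 fold changes of 0.06 and 0.20 and did not pass the test.

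Of the 21 receptors and modulators of interleukin 1, 12 were tested, 1 rose and 1 fell, with a median log2 fold change of 0.00. CASP1 (834), the protease that cuts the IL1B precursor to its active form, fell from 5.08, 3.39 and 3.32 FPKM to 1.63, 1.39 and 2.13 FPKM. Its log2 fold change was -1.19 (SE 0.24, edgeR adjusted p = 0.0261). All U87MG-LMO2 libraries lay below all controls, as in 16.6% of all tested genes. TNFRSF1B (7133), the second TNF receptor, rose from 18.08, 19.56 and 18.36 FPKM to 24.12, 23.84 and 26.41 FPKM (log2 fold change 0.46, SE 0.11, edgeR adjusted p = 0.0402). That call was lost with the GC-content correction (0.28, edgeR adjusted p = 0.0821) and with limma, whereas CASP1 kept its call in both. The abundant receptors TNFRSF1A (7132) and LTBR (4055) had log2 fold changes of -0.13 and -0.02 and did not pass the test.

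Of the receptors for the chemokines, CCR1 (1230), which binds CCL7 and several other CC chemokines, was present and the receptors for CXCL1 to CXCL3, CXCL12 and CCL2 were scarce. CCR1 measured 6.18, 3.71 and 3.28 FPKM in U87MG-control and 3.21, 2.78 and 7.25 FPKM in U87MG-LMO2 (log2 fold change 0.09, edgeR adjusted p = 0.909), again highest in the 2 libraries that stood apart. The decoy receptor ACKR2 had 0.42 to 0.73 FPKM over all libraries. CXCR4 and CXCR1 had 0 counts in all 6 libraries, CXCR2 had at most 6.92 expected counts and CCR2 at most 1. The interleukin 1 receptor IL1R1 (3554) was present, at 9.10, 6.42 and 7.39 FPKM in U87MG-control and 9.04, 9.22 and 10.57 FPKM in U87MG-LMO2 (log2 fold change 0.39, edgeR adjusted p = 0.157). Its antagonist IL1RN had 11.39, 7.72 and 7.18 FPKM in U87MG-control and 5.22, 3.39 and 16.46 FPKM in U87MG-LMO2, again with U87MG-LMO2 replicate 3 above the rest. These receptors and IL1RN were chosen after their values were seen.

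Of 21 further chemokines, 9 had 0 counts in all 6 libraries, 8 were tested and none was called by edgeR with the filter on low counts. Of the 8, 3 had an unadjusted p under 0.05, against 25.7% of all tested genes, and the median log2 fold change was -0.08. The most abundant, CCL5 (6352) and CCL26 (10344), had log2 fold changes of -0.13 and -0.53 with adjusted p values of 0.584 and 0.152. CXCL8, a CXCR2 ligand chosen after its values were seen, measured 2.96, 0.90 and 0.40 FPKM in U87MG-control and 3.07, 5.54 and 7.09 FPKM in U87MG-LMO2. The groups did not overlap, as in 17.5% of all tested genes in this direction, with a log2 fold change of 1.97 (SE 0.58, edgeR adjusted p = 0.0760). Without the filter on low counts, CXCL8 (1.98, edgeR adjusted p = 0.0200) and CCL3 (1.79, edgeR adjusted p = 0.0404) were called higher, as were 3.45% of all genes. CCL3, also chosen after its values were seen, measured 0.44, 0.65 and 0.48 FPKM in U87MG-control and 1.1, 1.3 and 2.89 FPKM in U87MG-LMO2.

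Of 34 other NF-kB targets, 25 were tested, 3 rose, against 4.72% of all tested genes, and none fell by edgeR. At an unadjusted p under 0.05, 6 were higher and 1 was lower, against 2221 higher and 1922 lower of all 16092 tested genes (25.7% in either direction). The median log2 fold change was 0.30, beside -0.01 over all tested genes. TNFAIP2 (7127), a TNF-induced gene, rose from 0.97, 0.99 and 0.80 FPKM to 3.05, 2.14 and 4.38 FPKM (log2 fold change 1.88, SE 0.28, edgeR adjusted p = 0.0106). IER3 (8870), an early response gene, rose from 46.46, 25.94 and 28.80 FPKM to 52.34, 80.21 and 65.26 FPKM (log2 fold change 1.01, SE 0.24, edgeR adjusted p = 0.0392). BIRC3 (330), an inhibitor of apoptosis, rose from 0.20, 0.14 and 0.26 FPKM to 0.62, 0.45 and 0.38 FPKM (log2 fold change 1.14, SE 0.28, edgeR adjusted p = 0.0446). For these 3 genes the groups did not overlap, as in 17.5% of all tested genes in this direction. U87MG-LMO2 replicate 3 was the highest for TNFAIP2 only. IER3 was not called with the GC-content correction (0.85, edgeR adjusted p = 0.0831), and BIRC3 was not called by DESeq2 (adjusted p = 0.0509) or limma (0.30 on log2(FPKM + 1), adjusted p = 0.0769).

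The most abundant target, SOD2 (6648), the mitochondrial superoxide dismutase, measured 172.26, 95.30 and 98.01 FPKM in U87MG-control and 168.57, 113.06 and 907.67 FPKM in U87MG-LMO2. The pattern was that of CXCL2 and CXCL3, with U87MG-LMO2 replicate 3 far above and U87MG-control replicate 1 the highest control, and the difference was not called (log2 fold change 1.63, SE 0.70, edgeR adjusted p = 0.183). CSF1 (1435), the next most abundant, had a log2 fold change of 0.11 (SE 0.26). In this list 7 of the 25 tested genes were at least 2-fold higher in U87MG-LMO2 replicate 3 than in the mean of U87MG-LMO2 replicates 1 and 2. This held for 2.47% of all tested genes. All 7 calls in the 5 lists were lost when U87MG-control replicate 2 or 3 was left out, when 1.08% and 0.875% of all tested genes were called. The fold changes kept their direction and about their size, for example 1.92 and 1.79 for TNFAIP2, 0.40 and 0.39 for TRAF3, and -1.29 and -1.28 for CASP1. Without U87MG-LMO2 replicate 3 there were 10 genes of the lists called higher and 6 lower, against 7.97% and 6.72% of all tested genes.

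**Figure D4:**
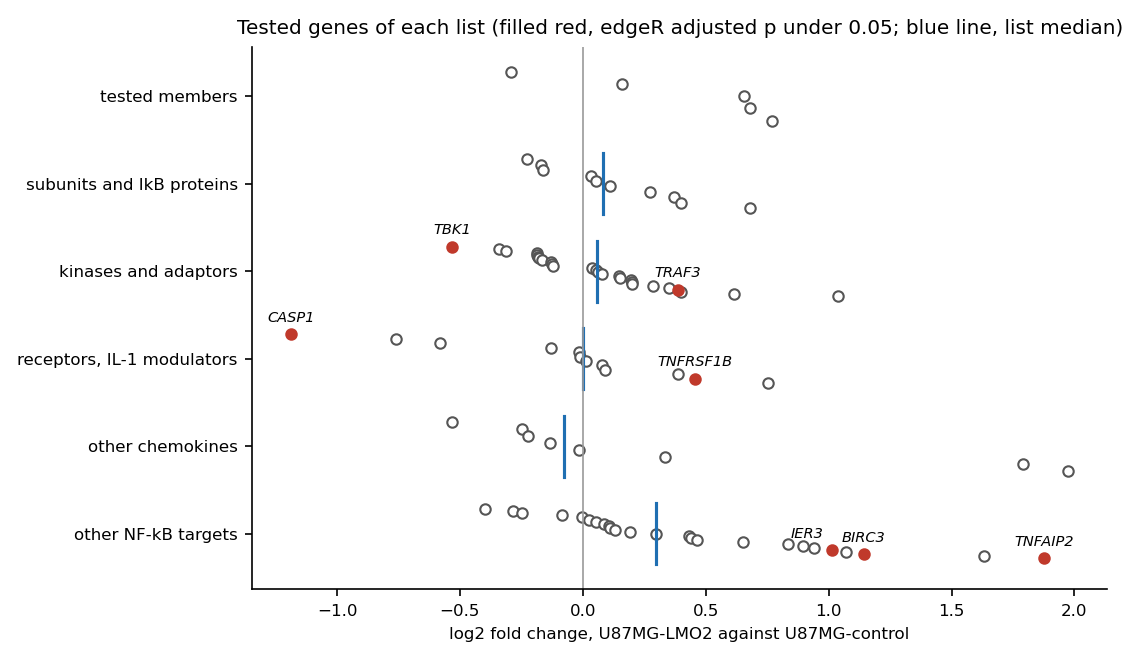
Log2 fold change of U87MG-LMO2 against U87MG-control (horizontal axis) for each tested gene of the 10 members and of the 5 pathway lists, with filled red points at an edgeR adjusted p under 0.05 and a blue line at each list median. None of the 5 tested members is filled, and the filled targets TNFAIP2, BIRC3 and IER3 lie above 1.

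The genes whose log2 CPM followed NFKBIA most closely over the 6 libraries, among 15226 genes with a mean of at least 1 CPM, were TPCN1 (Pearson r 0.998), TBKBP1 (0.997) and SELENON (0.996). Among the members, NFKBIA had an r of 0.806 with CXCL2, 0.801 with CXCL3, 0.495 with IL1B and 0.369 with TNFAIP3. These values describe 6 libraries and carry no test.

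Markers were checked for the labelled cells and for other sources of these cytokines. VIM and CD44 of the 8 glioma markers were high, whereas SOX2, S100B and OLIG2 were at or below 0.42 FPKM. All 8 markers together summed to 5680.6 to 5766.15 FPKM in U87MG-control and 5741.48 to 6364.48 FPKM in U87MG-LMO2. GFAP, unreadable in U87MG-LMO2 replicate 3, entered that sum as 0. CHI3L1 of the same list, a secreted glycoprotein, measured 130.79, 51.65 and 49.98 FPKM in U87MG-control and 55.24, 46.5 and 215.91 FPKM in U87MG-LMO2. It was thus highest in the 2 libraries that stood apart, at 2.58 and 4.63 times the mean CPM of the others of their group, and its part in the cytokine values was not tested. Of 10 myeloid markers, AIF1, TYROBP and C1QA had 0 counts in all libraries and 8, these included, had at most 10 counts in each. The summed level of all 10, at 214.78 to 285.91 FPKM in U87MG-control and 161.56 to 286.93 FPKM in U87MG-LMO2, was almost all CD68, a lysosomal protein. CD68 was highest in U87MG-control replicate 1 and U87MG-LMO2 replicate 3, at 283.31 and 282.60 FPKM, and its part in the cytokine values was not tested. CSF1R was called higher in U87MG-LMO2 (log2 fold change 0.81, edgeR adjusted p = 0.0325). The markers named here were picked from their lists after their values were seen. The 6 endothelial markers summed to at most 2.35 FPKM. In bulk RNA, more cells that make a chemokine and more RNA per cell cannot be told apart.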

How the data were processed

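RNA-seq libraries of U87MG cells came from a sequencing company. The submitters' processing notes name Bowtie2, BWA and GRCh38.p12, without their roles, and the counting program and its use of strand are not given in the sources used here. For each library the authors deposited expected counts per gene, which are estimated and not normalized, and FPKM values scaled to length and depth. A gene with no line was taken as 0 counts. The authors' comparison table also holds a log2 ratio and a probability, which were not used. Its deposited mean FPKM served to find 132 genes damaged in the table of U87MG-LMO2 replicate 3, which holds unreadable lines. None of the 10 members was among them. They held 0.350% of the control counts and were left out of all tests. Symbols for 89.6% of the genes, and promoters, came from RefSeq tables of GRCh38.p14.

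The rounded expected counts were compared between groups by edgeR 4.0.16 in R 4.3.3 (filterByExpr, TMM, quasi-likelihood, 2-sided), with Benjamini-Hochberg adjustment over 16092 genes and calls at an adjusted p under 0.05. CPM used the TMM-adjusted library sizes. Members removed by the filter were taken from a fit without it. Deviations of U87MG-control and U87MG-LMO2 libraries with the same replicate number correlated at -0.12, -0.00342 and -0.04, which gave no sign of pairing. With 3 libraries a group this cannot exclude a shared culture or day, and no source says that the numbers mark 1. Alternatives were DESeq2 1.42.0, limma 3.58.1 on log2(FPKM + 1) and log2(FPKM + 0.1), upper-quartile normalization, no filter, at least 10 counts in every library, the replicate block and leaving out each library. A GC-content correction, the removal of both libraries that stood apart and the alternatives without the filter for the members it removed were added after seeing the data. The fits were tested on simulated data.

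The members and lists were chosen with earlier results of these data known. The genes named were LMO2, all members, every called gene of a list (up to 6 per direction) and its 2 highest by FPKM, and the 3 genes most correlated with the member of lowest adjusted p and with that of highest FPKM, which were both NFKBIA. The text marks other genes as chosen with their values known.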

Additional observations from a re-analysis of the deposited data

Results flagged for a closer look

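CSF3 (1440), which encodes the granulocyte growth factor G-CSF, and GFAP (2670), an astrocyte filament, were among the 132 genes that could not be read in U87MG-LMO2 replicate 3, and both had an implied level there above all controls. The authors' mean FPKM of CSF3 in U87MG-LMO2 was 85.25 and the readable libraries measured 34.63 and 41.2 FPKM, which implies 179.92 FPKM in replicate 3. The U87MG-control libraries measured 112.29, 55.59 and 48.68 FPKM, so replicate 1 was the highest control. The implied level of GFAP was 0.36 FPKM, against 0.14 to 0.26 FPKM in U87MG-control. Neither gene was tested.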

How the results depend on the processing

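The calls depended on which libraries and filter were used. Without U87MG-control replicate 1 and U87MG-LMO2 replicate 3 together, chosen after seeing the data, 2 members were called higher (IL1B and NFKBIA) and 1 lower (TNFAIP3). Of all 16234 genes tested there, 9.67% were called higher and 8.53% lower. The removed libraries carried high values of these members, so those calls cannot decide whether the members changed. Without the filter on low counts 1 member was called higher (CCL2), as were 3.45% of all 26988 genes. With single libraries left out and the filter kept, 0 members were called higher and 0 to 1 lower. The 1 was TNFAIP3 without U87MG-LMO2 replicate 3, when 6.72% of all tested genes were called lower. Over these removals CXCL3 ranged from -0.27 to 1.06 and IL1B from -0.22 to 1.45, and without the filter CXCL1 from 0.90 to 3.73 and IL1A from 0.06 to 1.41. CXCL3 reversed to -0.27 without U87MG-LMO2 replicate 3, and IL1B to -0.22, -0.21 and -0.12 without U87MG-control replicate 2, U87MG-control replicate 3 or U87MG-LMO2 replicate 3. CXCL1, tested without the filter, was called with the replicate block (2.12, adjusted p = 0.0286) and without U87MG-LMO2 replicate 1 (2.85, adjusted p = 0.0211). Both fits kept U87MG-LMO2 replicate 3, the library with most of its counts. The share of all genes called in these unfiltered fits was not counted. With the filter, the same settings called 387 of 16092 and 177 of 16302 genes higher. In all other member results the direction held. Among the named results, 58 lost a call, 6 gained one, 4 reversed and 174 kept both. The cause was not tested.

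Over all genes, 760 were called higher and 443 lower. The replicate block gave 387 and 189, although no source says that the numbers pair the libraries. The removal of both libraries that stood apart gave 1570 and 1384, single removals gave 102 to 1307 and 42 to 1102, and DESeq2 called 691 lower. Over the lists, with 5 higher and 2 lower, DESeq2 called 8 higher, limma 2 with either pseudocount, the replicate block 1, the GC-content correction 3, no filter 10, the removal of both libraries 13 and single removals 0 to 10. Lower calls were 1 with the replicate block, 1 with the GC-content correction, 5 without both libraries and 0 to 6 with single removals. The lists held 81 tested genes in the main fit, 79 with DESeq2 and 97 without the filter. Over all genes the higher calls were 1006 of 14530 with DESeq2 and 521 and 512 of 16092 with limma. They were 570 with the GC-content correction and 930 of 26988 without the filter. In these settings the higher calls of the lists moved in the same direction as those of all genes. With the replicate block TRAF3, TBK1, TNFRSF1B, BIRC3 and IER3 lost their calls, at adjusted p values from 0.0697 to 0.104. CXCL12 was at the floor at this depth.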
